A study of Glycine max with 2 samples.

Results

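The distal end of soybean chromosome 9 was searched for loci whose transcripts were found in only one of the isolines compared, Clark standard (CS) or Clark glabrous (CG). The members were all loci with ids of Glyma09g40000 or higher on this chromosome, taken with the lowest-numbered cDNA model of each locus and in the order of their ids. They numbered 222 of the 3518 loci of chromosome 9 (6.31%) and of the 69145 loci in the whole data set. The ids ran without a gap, in steps of 10, from Glyma09g40000 to Glyma09g42210, and stand here for the order of the loci, since no genomic coordinates were used.

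RNA from shoot tips of greenhouse plants about 4 weeks old was sequenced in 1 library per line, with material of several plants in each. CS is the wild type line with trichomes. CG is its hairless isoline, made by repeated backcrossing of the dominant P1 glabrous mutation from another soybean line into Clark, and it carries that allele. Levels are RPKM as the authors deposited them, that is, alignments scaled by the length of the cDNA model and by the library's total. Since there were no replicates, the line differences below could not be tested and carry no p-value. The steps between the deposited values put this total at 152791818 alignments in CS and 147273809 in CG, where a read can count more than once.

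Isolines of this kind share most of their genome, and backcrossing toward a selected mutation also keeps donor DNA on either side of it. In soybean genetics P1 has been mapped to chromosome 9. Its place relative to the loci described here was not worked out, and no locus was tested as P1. Trichomes are outgrowths of the epidermis, so a shoot tip of a hairy line holds cells that a hairless one lacks. A lower level in CG can come from fewer cells of a type or from less RNA in each cell, and these cannot be told apart in whole shoot tips.

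No distal locus was abundant in one line and absent from the other. A line-specific locus was taken as one with 1 RPKM or more in one library and under 0.1 RPKM in the other. By this limit 0 of the 222 loci were specific to CS and 1 was specific to CG, Glyma09g41610. On the rest of chromosome 9 the shares were 0.091% of loci for CS and 0.121% for CG, and over all loci they were 0.145% and 0.139%. A single locus is too few to set the distal end apart from these shares.

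Glyma09g41610 had 0.0502 RPKM in CS and 1.24 RPKM in CG. These values correspond to at least 4 alignments in CS and 95 in CG, a 24.6-fold difference with an exact (Clopper-Pearson) 95% interval of 9.31 to 92.3. Folds of single loci are ratios of the deposited RPKM, and their intervals cover counting error only and compare the libraries, not the lines. The locus was low in both, and its mean of under 1 RPKM kept it out of the counts of 2-fold differences given further on. Scaling CG down to the level of CS, as described with those counts, put it under the limit of 1 RPKM. Its neighbours did not share the difference. Glyma09g41600 had 2.14 RPKM in CS and 2.76 in CG. Glyma09g41620 had 0.0788 in CS and 0.00743 in CG, the latter from at least 1 alignment.

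The next locus outside the limit was Glyma09g41670, with 0.172 RPKM in CS and 2.01 in CG. The CG value was 11.7-fold the CS value, with 40 alignments or more in CS and 451 or more in CG (exact 95% interval 8.46 to 16.6). It was also the largest difference toward CG among the distal loci with a mean of 1 RPKM or more. On either side of it, Glyma09g41660 was listed at 0.0752 RPKM in CS and 0 in CG, and Glyma09g41680 had 0.165 RPKM in CS and 0.263 in CG. Glyma09g41660 rested on a single alignment. Glyma09g41680 had 15 in CS and 23 in CG, and was low in both libraries without a difference like that of Glyma09g41670.

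A value of exactly 0 in one library alone was found for 9 distal loci, 6 of them at 0 in CG and 3 at 0 in CS. On the rest of chromosome 9, 93 of 3296 loci were at 0 in CG alone and 108 in CS alone. Over all 69145 loci the counts were 1828 and 2302. For the 9 distal loci the smallest whole numbers of alignments in the other library were 1 to 5. Its level there was at most 0.0882 RPKM, in Glyma09g40540. A library with 0 alignments is compatible with an expected number of up to 3, which is 0.0196 RPKM in CS and 0.0204 RPKM in CG for a model 1000 bases long. Presence in a single line cannot be read from such values. A further 25 loci (11.3%) were listed at 0 in both libraries, against 16.4% on the rest of the chromosome and 13.9% of all loci.

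The distal loci reached 1 RPKM about as often as other loci. In CS 111 of them reached 1 RPKM (Wilson 95% interval 43.5% to 56.5% of the loci), and in CG 123 did (55.4%, 48.8% to 61.8%). The intervals treat loci as independent draws. For the rest of chromosome 9 the shares were 46.3% in CS and 49.6% in CG, and for all loci 48.3% and 51.2%. Both libraries reached 1 RPKM for 106 distal loci, while 5 loci did so in CS alone and 17 in CG alone. On the rest of chromosome 9, 67 of 3296 loci did so in CS alone and 178 in CG alone. Over all 69145 loci the counts were 1485 and 3524, so CG alone was the larger count there too. At 10 RPKM or more there were 24 distal loci in each library, 10.8% of them. The shares were 11.3% in CS and 15.0% in CG on the rest of the chromosome, and 11.9% and 15.1% over all loci.

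The most abundant transcript of this chromosome end was Glyma09g40960, with 159 RPKM in CS and 198 RPKM in CG. It made up 16.5% of the summed RPKM of the distal loci in CS and 17.4% in CG. The next in order of mean level, Glyma09g41050, had 26.9 RPKM in CS and 74.0 RPKM in CG, and was the only one of the 8 most abundant loci past 2-fold. Glyma09g42010 followed with 35.3 RPKM in CS and 59.3 RPKM in CG. These 3 loci were all higher in CG as deposited, though for Glyma09g40960 the direction turned under the scaling of CG to CS.

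Glyma09g40060 had 41.7 RPKM in CS and 28.5 RPKM in CG, and Glyma09g41150 had 27.9 and 19.8 RPKM in the same order. They were the members of the abundant group that were higher in CS. The remaining 3 were higher in CG in the deposited values. Glyma09g40690 had 23.3 RPKM in CS and 34.1 in CG. Glyma09g40810 had 22.0 and 30.2 RPKM. Glyma09g40230 had 22.6 and 25.5 RPKM, and its direction too turned under the scaling. The 8 loci held 37.1% of the summed distal RPKM in CS and 41.2% in CG.

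**Figure D1:**
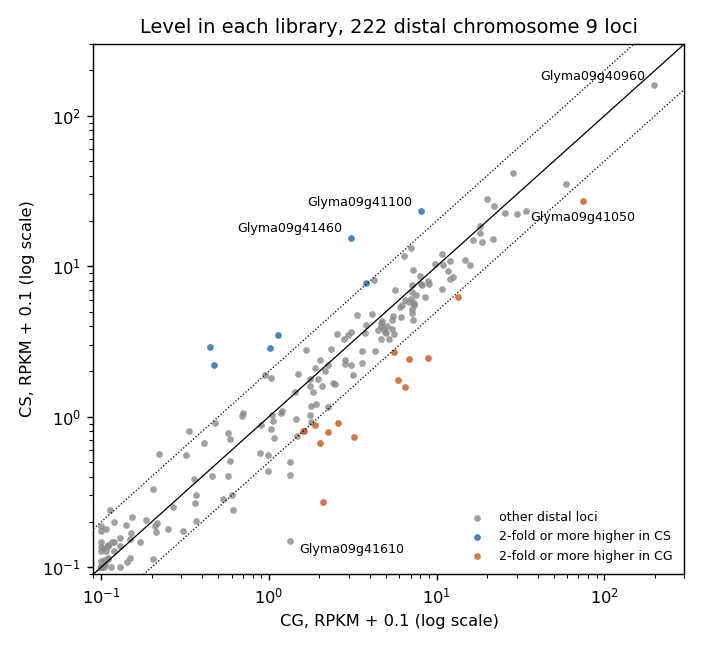
RPKM plus 0.1 in CG (horizontal, log scale) and in CS (vertical, log scale) of the 222 distal chromosome 9 loci, 1 point per locus, with the line of equal values and dotted lines at 2-fold. Most points lie along the diagonal, Glyma09g40960 stands at the top with 159 RPKM in CS and 198 in CG, and Glyma09g41610 lies below the 2-fold lines with 1.24 RPKM in CG.

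Line ratios were taken as log2 CS/CG after adding 0.1 RPKM to both values, which understates the change of low loci, among the 125 distal loci with a mean of 1 RPKM or more over both libraries. Of the 97 loci left out, 72 were above 0 in a library, and 9 of those differed by 2-fold or more (3 higher in CS, 6 in CG) with at most 1.24 RPKM. Among the 125 loci kept, those at least 2-fold higher in CS numbered 7 (5.6%, Wilson 95% interval 2.74% to 11.1%), and those higher in CG by as much numbered 14 (11.2%, 6.79% to 17.9%). The background was 5.05% for CS and 16.7% for CG on the rest of chromosome 9, and 5.66% and 15.2% over all loci. The distal shares thus lay near the background in both directions. The other 104 loci (83.2%) were within 2-fold on the log2(RPKM + 0.1) scale. With 0.01 RPKM added instead, 8 loci passed 2-fold toward CS and 18 toward CG.

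The median log2 CS/CG of the distal loci was -0.25, and the quartiles were -0.58 and 0.10. For the 1624 loci of the rest of chromosome 9 the median was -0.34 and the quartiles were -0.73 and 0.03. Over all 35036 loci it was -0.35. The median of all loci thus stood below 0, and ratios are also given relative to it, after multiplying the CG values by 0.779 so that this median became 0. On that scale the distal median was 0.11 and that of the rest of the chromosome 0.014. The split of the 2-fold loci turned with it, to 13 higher in CS (10.4%) and 10 higher in CG (8.0%), against 9.67% and 9.11% of all loci.

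**Figure D2:**
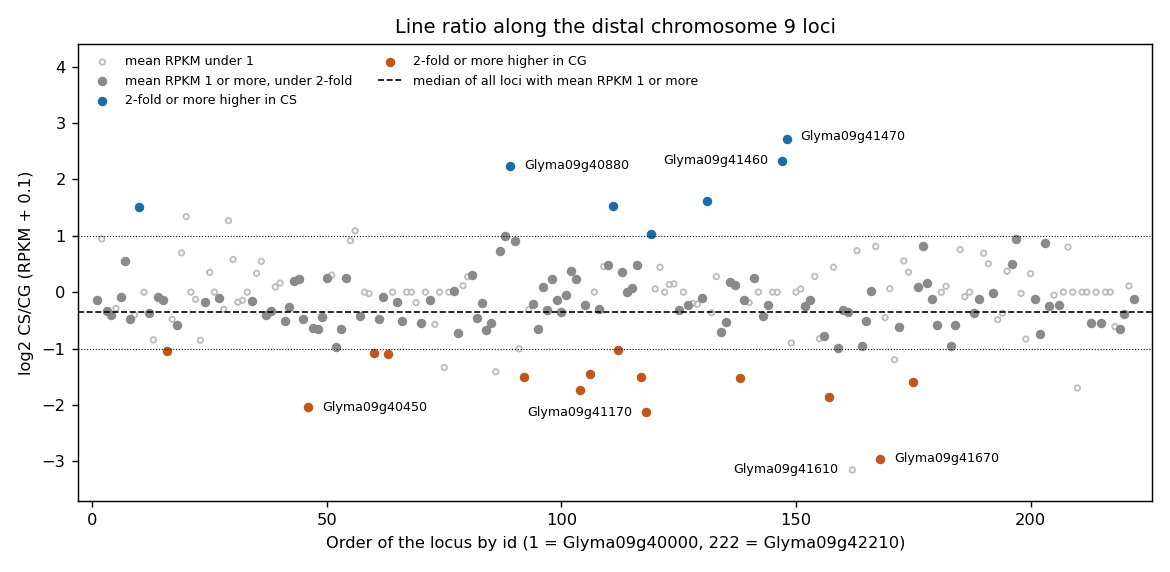
Log2 CS/CG (RPKM plus 0.1) of each of the 222 distal loci in the order of their ids, with open circles for loci of mean RPKM under 1, dotted lines at 2-fold and a dashed line at the median of all loci, -0.35. The 7 loci higher in CS and the 14 higher in CG are scattered along the order, with Glyma09g41460 and Glyma09g41470 side by side at the top.

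The highest ratios toward CS belonged to a pair of adjacent loci, Glyma09g41460 and Glyma09g41470. The first is the only distal locus to which the study's supplementary tables give a name, that of a lipid transfer protein of mung bean (Vigna radiata) that it resembles. Plant lipid transfer proteins are small, secreted, cysteine-rich proteins that bind lipids in a hydrophobic pocket, and many are made in the epidermis, where they have been linked to the cuticle. The same tables name a second lipid transfer protein, Glyma05g09160 on chromosome 5. Both were listed there for a difference between these lines in short tags from the 3′ end of transcripts, sequenced in other libraries, so their choice is not independent of the line. The tags, each 16 bases long, are shown because the loci were listed by them.
Glyma09g41460: caccaactgcgactcc
Glyma05g09160: gatgctagctagctgt

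Glyma09g41460 had 15.4 RPKM in CS and 2.99 RPKM in CG. The difference was 5.16-fold, from at least 1804 and 337 alignments (exact 95% interval 4.59 to 5.81), with a log2 CS/CG of 2.33, or 2.68 relative to all loci. Glyma05g09160 went the other way, with 7.03 RPKM in CS and 12.5 RPKM in CG, a log2 ratio of -0.82 that stayed under 2-fold. In the paper's tag counts, from other libraries, Glyma05g09160 was also higher in CG, there by more than 2-fold. The lipid transfer proteins named in the tables thus did not share a direction in RPKM.

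Glyma09g41470, the next locus by id, had 2.83 RPKM in CS and 0.348 RPKM in CG. Its 8.13-fold difference rested on at least 194 and 23 alignments (exact 95% interval 5.26 to 13.1) and gave a log2 ratio of 2.71. The intervals of the folds of the pair overlapped. The authors let a read align to several models, and whether these loci share reads was not tested. Beyond the pair the difference was not seen. Glyma09g41450 had at least 1 alignment in each library, with 0.00534 RPKM in CS and 0.00554 in CG. Glyma09g41480 was low and higher in CG, with 0.183 RPKM in CS and 0.429 in CG.

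Glyma09g40880 was the third locus more than 4-fold higher in CS. It had 2.12 RPKM in CS and 0.369 RPKM in CG, a 5.75-fold difference from at least 471 and 79 alignments (exact 95% interval 4.52 to 7.39). It lay in a run of neighbours that all leaned toward CS, a run picked out after its values were seen. Glyma09g40860 had 2.66 RPKM in CS and 1.57 in CG. Glyma09g40870 had 1.79 and 0.849 RPKM. Glyma09g40890 had 13.1 and 6.97 RPKM. The 4 adjacent loci all passed 2-fold once the CG values were scaled, with log2 ratios from 1.06 to 2.52, and this was the longest run of its kind among the distal loci. Before the scaling only Glyma09g40880 passed on the log2(RPKM + 0.1) scale, with Glyma09g40870 just short of it at 2.11-fold in RPKM. The loci just outside it were higher in CG, Glyma09g40850 with 0.399 RPKM in CS against 1.23 in CG and Glyma09g40900 with 0.200 against 0.502 RPKM.

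The other loci at least 2-fold higher in CS stood singly. Glyma09g41100, the most abundant of all 7, had 23.0 RPKM in CS and 7.95 RPKM in CG, a 2.90-fold difference (exact 95% interval 2.74 to 3.06). Glyma09g41300 had 3.39 RPKM in CS and 1.03 in CG, 3.29-fold apart. Glyma09g40090 had 2.78 RPKM in CS and 0.913 in CG, or 3.04-fold. All of these had 245 alignments or more in each library, so counting error on them was small. Glyma09g41180 was near the limit, with 7.66 RPKM in CS and 3.69 in CG, and its interval of 1.72 to 2.52 included 2-fold.

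Toward CG the differences were spread over more loci. Glyma09g41170 and its neighbour Glyma09g41160 made the only adjacent pair among the loci with a mean of 1 RPKM or more. Below that mean, Glyma09g40900 (0.200 RPKM in CS and 0.502 in CG) stood next to Glyma09g40910, described further on. Glyma09g41170 had 0.632 RPKM in CS and 3.11 RPKM in CG, 4.92-fold higher in CG (exact 95% interval 3.81 to 6.42). Glyma09g41160 had 2.31 and 6.70 RPKM, 2.90-fold higher (2.67 to 3.17). The locus that follows them, Glyma09g41180, was the one just given as higher in CS, so the direction changed from one id to the next.

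Glyma09g40450 had 1.49 RPKM in CS and 6.41 RPKM in CG, 4.32-fold higher in CG (exact 95% interval 3.66 to 5.11). With Glyma09g41670 and Glyma09g41170 it was one of the 3 loci more than 4-fold higher in CG among those with a mean of 1 RPKM or more. The 3 loci past 4-fold toward CS and the 3 toward CG were each 2.4% of the distal loci of that level. The shares were 1.91% for CS and 4.99% for CG on the rest of chromosome 9, and 1.53% and 3.93% over all loci. Glyma09g41050, the second most abundant distal locus, was 2.75-fold higher in CG (2.62 to 2.89). Glyma09g41560 had 2.35 RPKM in CS and 8.76 in CG, and Glyma09g41030 had 1.67 and 5.81 RPKM. Their log2 ratios were -1.85 and -1.74.

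For a further 3 loci the CS level was under 1 RPKM. Glyma09g41740 had 0.569 RPKM in CS and 1.92 RPKM in CG, Glyma09g41370 had 0.691 and 2.16 RPKM, and Glyma09g40910 had 0.815 and 2.50 RPKM, with log2 ratios from -1.59 to -1.50. All 3 stayed past 2-fold relative to all loci. Glyma09g40620, with 6.17 RPKM in CS and 13.3 in CG, and Glyma09g40590, with 0.783 and 1.77 RPKM, were past 2-fold only before the scaling. Their log2 ratios of -1.10 and -1.08 became -0.74 in both relative to all loci. The last of the 14, Glyma09g40150 and Glyma09g41110, were just inside the limit at -1.04 and -1.02.

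**Figure D3:**
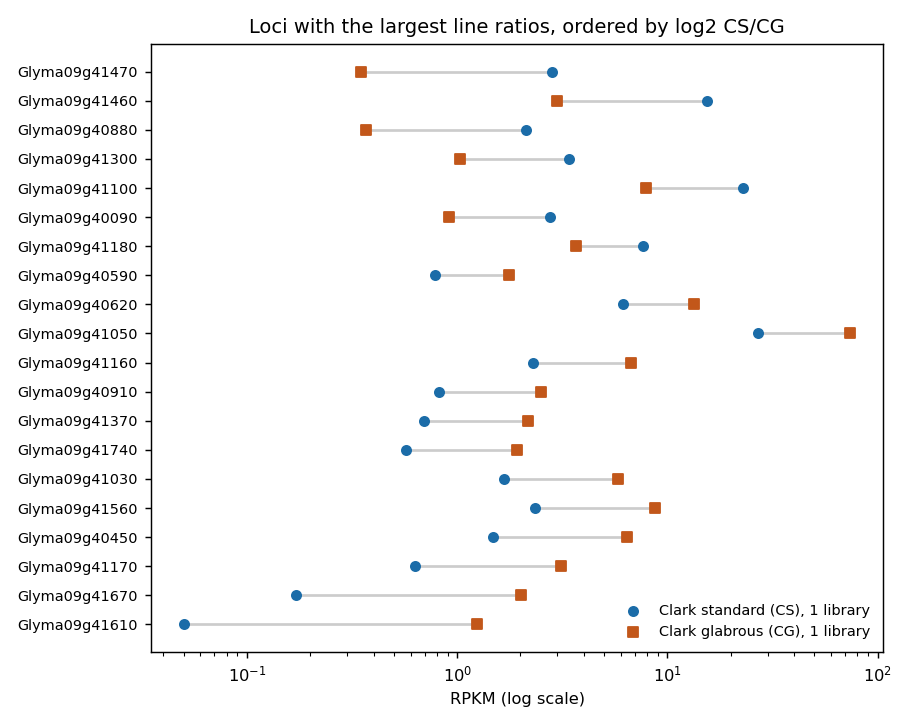
RPKM (log scale) in CS (circles) and CG (squares) of the distal loci with the largest line ratios and of Glyma09g41610, ordered by log2 CS/CG, with 1 library per line and no error bars. The values of Glyma09g41460 are 15.4 RPKM in CS and 2.99 in CG, and the widest gap is that of Glyma09g41610 at the bottom.

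Distal loci past 2-fold had a lower median level than the other distal loci counted. The 21 distal loci past 2-fold had a median of 2.21 RPKM, taken over their means of both libraries, against 4.46 RPKM in the other loci with a mean of 1 or more. Among the 24 loci with a mean of 10 RPKM or more, 2 were past 2-fold, Glyma09g41100 toward CS and Glyma09g41050 toward CG. No matching values are given for the rest of the chromosome or for all loci. Whether this is particular to the distal end was not tested.

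Along the order of ids the last counted 2-fold locus was Glyma09g41740. From Glyma09g41750 to the last locus there were 47 loci, of which 22 had a mean of 1 RPKM or more. The stretch was cut after the last such locus, so that 0 of these 22 were past 2-fold follows from the choice. Their ratios on the log2(RPKM + 0.1) scale ran from -0.96 in Glyma09g41820 to 0.94 in Glyma09g41960. As a plain ratio of RPKM, Glyma09g41820 was 2.04-fold higher in CG. Below a mean of 1 RPKM, Glyma09g42090 had 0.309 RPKM in CS and 1.23 RPKM in CG. Relative to all loci 3 of them passed 2-fold toward CS, Glyma09g41760, Glyma09g41960 and Glyma09g42020. The first locus, Glyma09g40000, had 7.93 RPKM in CS and 8.73 in CG, and the last, Glyma09g42210, had 16.6 and 18.1 RPKM, so both ends of the series were close in the lines. The longest gap between counted 2-fold loci lay from Glyma09g40150 to Glyma09g40450, with 29 loci between them. Among those 29, Glyma09g40190 (0.463 RPKM in CS and 0.123 in CG) and Glyma09g40280 (0.701 and 0.233 RPKM) were past 2-fold at a mean of under 1 RPKM.

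In stretches of 50 loci, the one from Glyma09g41000 to Glyma09g41490 held 5 of the 7 loci higher in CS and 6 of the 14 higher in CG. Its median log2 ratio was -0.08. The other distal stretches had medians from -0.35 to -0.32, near the -0.35 of all loci. On the rest of chromosome 9, the 49 stretches with 20 or more loci of mean 1 RPKM or more had medians from -0.62 to -0.09, from 0 to 8 loci higher in CS and from 1 to 11 higher in CG. The stretch from Glyma09g41000 was therefore just above the highest of these medians and inside the range of both counts. Among all 65 full stretches of the rest, however few loci they held of that level, the highest median was -0.04, and 2 stretches had 5 or more loci higher in CS.

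**Figure D4:**
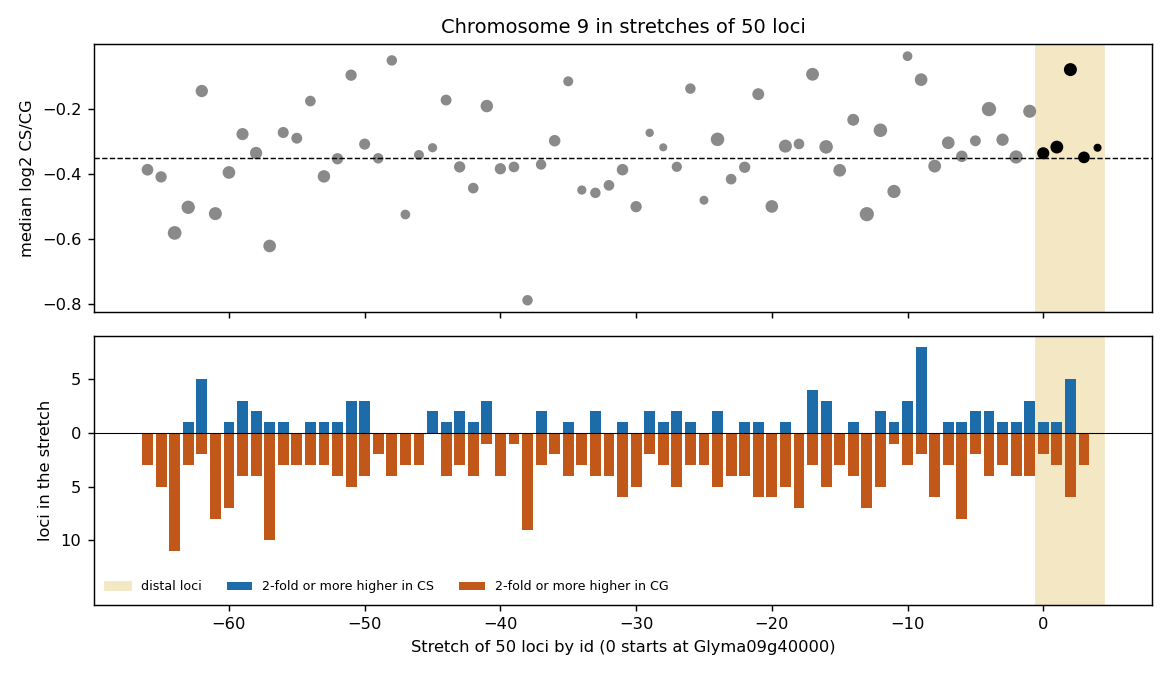
Chromosome 9 in stretches of 50 loci by id, counted both ways from Glyma09g40000, with the distal loci shaded and the last stretch shorter. The upper panel gives the median log2 CS/CG of the loci with a mean of 1 RPKM or more (point area by their number, dashed line at -0.35), and the lower panel counts loci at least 2-fold higher in CS (up) or CG (down), with 5 and 6 in the stretch from Glyma09g41000.

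Larger differences were found elsewhere on the chromosome. The study's tables name 9 loci on the rest of the chromosome, also picked for their tags. Of these, 8 passed 2-fold toward CG and 0 toward CS, with a median log2 ratio of -3.17. Among loci with a mean of 1 RPKM or more, the shares past 2-fold on the rest of the chromosome were 16.7% toward CG and 5.05% toward CS. Over all loci they were 15.2% and 5.66%. Because the 9 loci were picked, their count is no measure of the rest of the chromosome. Glyma09g08290, named as a jasmonate ZIM-domain protein, a repressor of jasmonate signalling, had 7.69 RPKM in CS and 199 RPKM in CG. The lowest and highest ratios over all loci of the rest with a mean of 1 RPKM or more were -4.89 and 5.72, and those of the distal loci were -2.96 and 2.71. The ranges rest on 1624 and 125 loci, and the larger set can be wider from its number alone.

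Alternative models of a distal locus gave close ratios. Several models were given for 22 of them, and in 21 every model had a mean of 1 RPKM or more. Within each of these 21 loci the log2 ratios differed by at most 0.13, in Glyma09g41360, and 0 of the 2-fold results depended on the model. In Glyma09g40740, whose models were under that mean, they differed by 0.14. The models of a locus overlap and share reads, so they are no independent check.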

How the data were processed

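The authors mapped the RNA-Seq reads with Bowtie (version not given in the sources used here) to cDNA models predicted from the Williams 82 genome (Glyma ids), allowing mismatches and several alignments per read, and deposited 1 RPKM value for each of 78773 models in each library. Reads with more mismatches than allowed are lost, and paralogs can share reads. Members and lists were chosen with earlier results of these data known.

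RPKM values were used as deposited. Their steps gave totals of 152791818 alignments in CS and 147273809 in CG, and the smallest whole numbers of alignments for all 197 distal loci above 0. The true numbers can be multiples of these. The totals count alignments, more than the mapped reads in the methods, which were fewer for CS than for CG, so scaling by reads would shift every ratio toward CS. They served for exact intervals only, not for a test, and multiply aligned reads are not independent. The named loci were the 12 largest log2 ratios past 2-fold in each direction and the 8 highest means (mean RPKM of 1 or more), each line-specific locus, Glyma09g41460, the neighbours of the 2 largest ratios in each direction, and the first and last locus. Other loci given by name were chosen after their values were seen. The reference gene table matched 0 of the 222 ids, so word lists of gene names were not made and no promoter or protein sequence is shown. Alternatives were other pseudocounts, filters, scalings, models, id limits and limits for line-specific loci. Scripts were tested on simulated data. Tables were handled with pandas 2.3.3 under Python 3.11.15, intervals were computed with SciPy 1.17.1 and NumPy 2.4.6, and plots were drawn with matplotlib 3.10.9.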

Additional observations from a re-analysis of the deposited data

How the results depend on the processing

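No paired analysis was possible because CS and CG had a single library each, which also left no library to omit. The number of distal loci past 2-fold toward CS, reported as 7, was 13 after median-centring and 13 with both libraries at the same 75th percentile, 1 where the mean had to reach 10 RPKM, and 11 with ids from Glyma09g39000. The number past 2-fold toward CG, reported as 14, was 7 with a pseudocount of 1, 1 with a mean of 10 or more, 22 with ids from Glyma09g39000 and 9 with ids from Glyma09g41000. The filter and the id limits change how many loci are counted. The distal median log2 ratio, -0.25 as reported, was -0.12 with no filter, 0.11 after median-centring and 0.10 at the same 75th percentile. That of the rest of the chromosome, -0.34, was -0.28 with a pseudocount of 1, -0.13 with no filter, 0.014 after median-centring and 0.011 at the same 75th percentile. The difference of these medians was 0.09 as reported and ran from 0.01 with no filter to 0.10.

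The locus specific to CG dropped to 0 under both scalings, with 5 RPKM required in CG and with 0 required in CS. With ids from Glyma09g39000, 1 locus was specific to CS. The loci at 1 RPKM or more were 173 in CS and 186 in CG with ids from Glyma09g39000, and 58 and 67 with ids from Glyma09g41000. Of the 20 named loci past 2-fold, 13 stayed past it with a pseudocount of 1 and 18 after median-centring, and 0 changed direction under any alternative run. Among all 33 named loci, 5 changed direction after median-centring.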
